A study of Mus musculus with 2 samples.

Results

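The RAS-ERK cascade and the phosphatases that switch it off were followed through 7 named genes: Hras, Braf, Map2k1, Map2k2, Mapk3, Dusp4 and Dusp6. A probe set, the group of short oligonucleotides whose combined brightness reports 1 transcript on an Affymetrix array, was taken as a member when its only gene symbol was 1 of these names. In all, 14 of the 45037 non-control probe sets qualified, and they covered 5 of the 18193 named genes: Braf with 9 probe sets, Map2k2 with 2, and Map2k1, Dusp4 and Dusp6 with 1 each. Hras, the small GTPase at the head of the cascade, and Mapk3, which encodes ERK1 at its end, had no probe set under the rule, so no signal of theirs is given.

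The RNA came from the cerebral cortex of male mice aged 4 weeks on a 129/B6 background, either wild-type or titled KO, for knockout. The sample titles name no gene, and the knockout is taken to be of Gnmt, the gene of glycine N-methyltransferase. Each genotype was 1 array, hybridised with total RNA of 3 mice combined in equal amounts. There was therefore no replicate and no test, and each ratio is that of 1 pool to 1 other pool. Which part of Gnmt was deleted is not stated in the sources used here.

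In this cascade an active RAS protein recruits a RAF kinase, RAF phosphorylates the kinases MEK1 and MEK2, and these phosphorylate ERK. ERK signalling in cortical neurons follows synaptic activity and neurotrophins, and it is known for its part in plasticity and memory. The dual-specificity phosphatases DUSP4 and DUSP6 remove the activating phosphates from ERK. Transcription of both genes is raised by ERK itself, which makes them part of a negative feedback. The arrays report transcripts and not phosphorylation, so they carry no measure of the activity of these kinases.

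Several values went against the labels or were foreign to cortex. The sample titled KO (the KO-titled pool) carries a genotype entry of wild-type, and its title decided its group. Gnmt gave 10 and 21.5 units in the wild-type and the KO-titled pool, under the floor of 64.2 units that stood in for detection calls, so it does not check the titles. Xist, the RNA of the inactive X chromosome, gave 49.6 and 2560.3 units, although both pools are labelled male. The 7 markers of cortical excitatory neurons examined all reached the floor in each pool, with summed signals of 15680 and 19382 units; 3 of them were at least 1.5-fold higher in the KO-titled pool and 1, Neurod6, was 3.04-fold lower. The summed signal of 7 anterior pituitary hormone genes was 31370 units in the wild-type and 726.3 units in the KO-titled pool. Microglia markers were at least 1.5-fold lower in the KO-titled pool for 5 of 8 genes and astrocyte markers for 4 of 7, and 1 microglia marker was at least 1.5-fold higher. By the same fold, 2 of the 4 measured striatal markers were lower and 0 higher, and 2 of the 6 hippocampal markers were lower and 1 higher. Of the inhibitory neuron markers 0 of 6 passed this fold in either direction, and of the measured endothelial markers 0 of 5. Of the 6 measured oligodendrocyte markers 1 was lower and 0 higher, and of the 4 oligodendrocyte precursor markers 1 was lower and 1 higher. All these marker counts are to be read against 18.2% of all 12244 measured genes lower and 12.5% higher. In tissue RNA, fewer cells of a type and less RNA per cell cannot be told apart. What these differences contribute to the ratios of the cascade was not tested.

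Among the 5 measured members, Braf and Dusp4 were higher in the KO-titled pool, Map2k2 was lower by its brighter probe set, and Map2k1 and Dusp6 lay within 1.5-fold. None of the 5 was 2-fold apart by its brightest probe set. Each ratio is the log2 of the KO-titled signal over the wild-type signal, less the median over all 23928 probe sets at or above the floor in both pools. By this measure 2 of 5 members were at least 1.5-fold higher, where 12.5% of all 12244 measured genes were, and 1 of 5 was at least 1.5-fold lower, where 18.2% of genes were. Over so few members these shares cannot be set apart from those of all genes. The median over the members was 0.01, beside -0.06 over all measured genes. The only error these arrays offer is the disagreement between probe sets of the same gene, which had an SD of 0.58 on the log2 scale, or 1.49-fold. It leaves out the spread between mice.

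**Figure D1:**
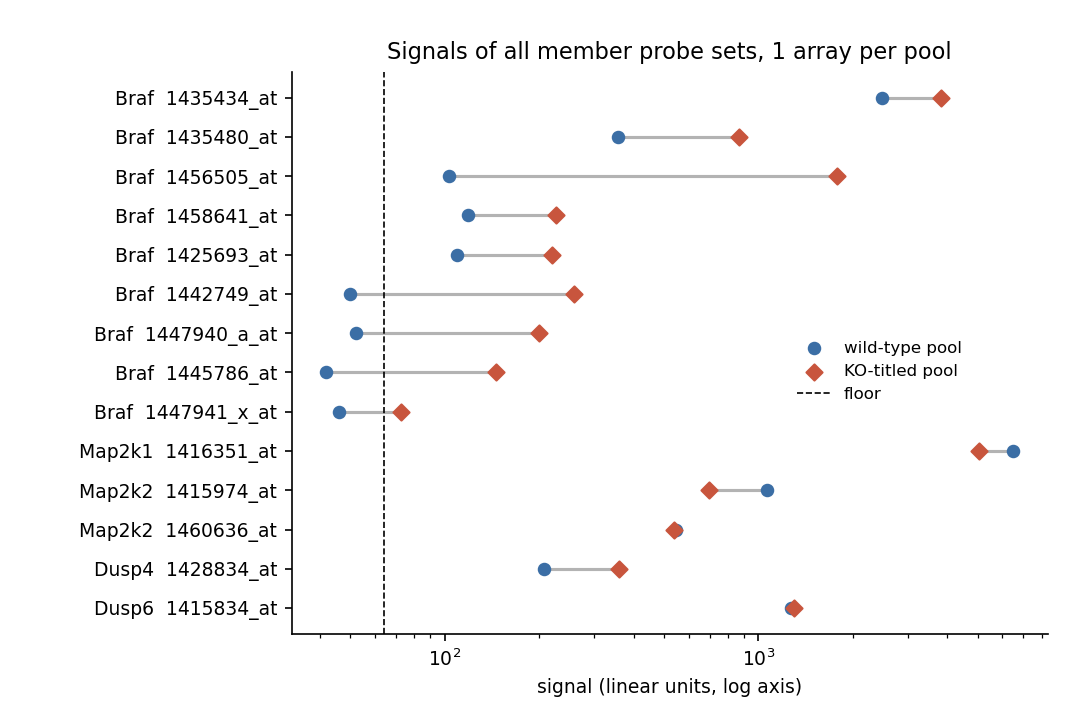
Signal of each of the 14 member probe sets in the wild-type pool (circles) and the KO-titled pool (diamonds), on a logarithmic axis in linear array units; the dashed line is the floor of 64.2 units. All 9 Braf probe sets have the diamond to the right of the circle, Map2k1 and both Map2k2 probe sets have it to the left, and the Dusp6 symbols nearly coincide.

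Braf encodes the main RAF kinase of neurons, the step at which RAS engages the kinase cascade. Its promoter is shown because Braf was the member with most probe sets on 1 side, though it also had 9 of the 14 member probe sets. The other reason is that the window holds 2 cAMP response elements (CRE), the sites bound by CREB factors. The window runs from 250 bases before to 50 after the RefSeq start of the gene, chr6:39725414-39725713 on the minus strand of GRCm38.p6, with each match to the CRE letters TGACGTCA in capitals.

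Braf: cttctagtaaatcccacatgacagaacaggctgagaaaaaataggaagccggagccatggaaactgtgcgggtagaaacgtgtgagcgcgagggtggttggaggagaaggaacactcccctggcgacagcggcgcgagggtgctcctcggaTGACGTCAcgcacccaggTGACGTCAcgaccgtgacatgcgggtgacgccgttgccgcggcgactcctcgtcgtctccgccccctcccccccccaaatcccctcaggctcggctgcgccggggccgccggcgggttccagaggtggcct

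The 2 matches begin 99 and 81 bases before the start. The CRE reads the same on both strands, so 1 search covers both. Of 32851 RefSeq promoter windows of this length, 1.79% held at least 1 CRE and 13 windows held 2 or more. Since the Braf window was chosen partly for its CREs, their rarity is no separate support. No CRE was found in the windows of Hras, Map2k1, Map2k2 or Dusp6. Dusp4 and Mapk3 had no promoter window and were not searched. The ETS core CCGGAA, searched on both strands and overlapping no CRE, was found once each in the windows of Hras and Map2k1 and in 14.9% of all windows. A match is a description of these letters and is no evidence that a factor binds there.

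All 9 Braf probe sets gave more signal in the KO-titled pool. The brightest, 1435434_at, had 2480.7 units in the wild-type and 3831.6 units in the KO-titled pool, a log2 ratio of 0.62 or 1.53-fold. The second, 1435480_at, had 357.6 and 866.4 units and was 2.40-fold higher. Probe sets 1458641_at and 1425693_at were dimmer, with 118.9 and 226.4 units and with 109.6 and 220.2 units. They gave log2 ratios of 0.92 and 0.99.

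One probe set of Braf stood far from the others. 1456505_at had 103.5 units in the wild-type and 1785.7 units in the KO-titled pool, a log2 ratio of 4.10 or 17.1-fold. This ratio was at the 99.9 percentile of all 20967 measured probe sets with 1 gene. The other 4 measured Braf probe sets lay between 0.62 and 1.26, and the median of all 5 was 0.99. The sources used here do not say which Braf transcript or part of the gene each probe set matches.

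The remaining 4 Braf probe sets reached the floor in the KO-titled pool alone, so their differences have only a lower bound. 1442749_at had 49.8 and 257.5 units and was at least 3.98-fold higher in the KO-titled pool. 1447940_a_at had 52.1 and 199.5 units and was at least 3.08-fold higher. 1445786_at had 41.8 and 145.7 units and was at least 2.25-fold higher. 1447941_x_at had 46.1 and 72.7 units and was at least 1.12-fold higher. Over all probe sets with 1 gene, 2613 (7.48%) reached the floor in the KO-titled pool alone and 1423 (4.07%) in the wild-type pool alone. A probe set sorted in this way is higher in that pool by selection. The direction of the 4 Braf probe sets is therefore no separate support. Of the 2613, 27.2% had a lower bound of 2-fold or more, 14.4% of 3-fold or more and 8.38% of 4-fold or more; of the 4 Braf probe sets 3, 2 and 0 did.

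**Figure D2:**
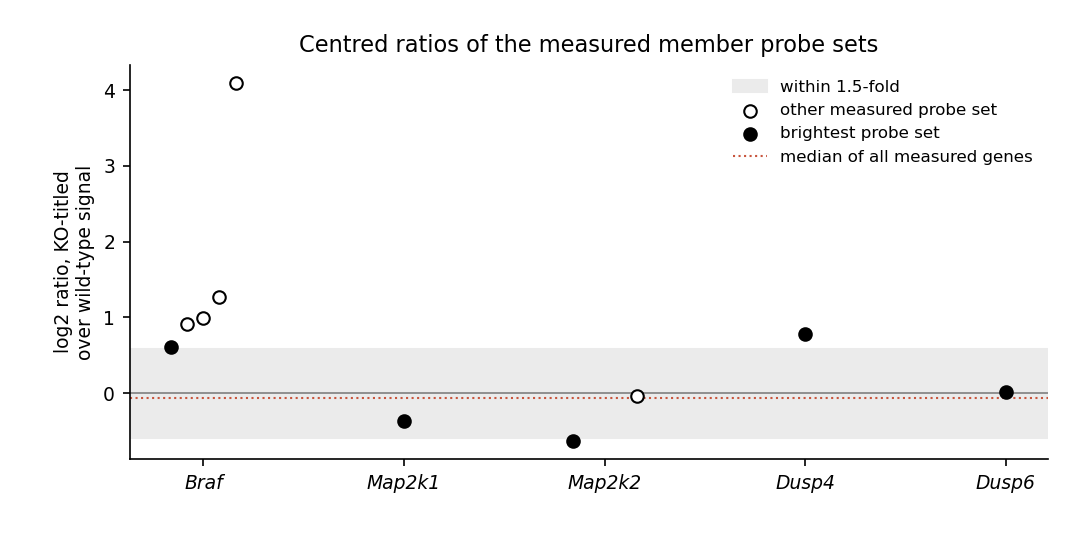
Centred log2 ratio of KO-titled over wild-type signal for the 10 member probe sets at or above the floor in both pools; filled points are the brightest probe set of each gene, open points the others, the grey band is 1.5-fold and the dotted line the median of all measured genes. All 5 Braf points lie above the band, with 1 near 4.10, and the Map2k2 points are at -0.63 and -0.04.

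All 5 measured Braf probe sets were at least 1.5-fold higher in the KO-titled pool, a side on which 16.5% of the measured probe sets with 1 gene lay. Among the 285 genes with 5 or more measured probe sets, 4 genes (1.4%) had every such probe set at least 1.5-fold higher, and Braf was 1 of them. The others were Etnk1, an ethanolamine kinase gene, Tnrc6a, a gene of microRNA silencing, and Lpp, a focal adhesion gene, with medians of 1.24, 1.08 and 1.03. On the other side, 3 of the 285 genes had every measured probe set at least 1.5-fold lower. By any amount, 52 had all of them higher and 28 all of them lower. By median ratio 17 of the 285 genes were above Braf, and by the range between lowest and highest probe set 20 were wider than its 3.48. This comparison was chosen after the Braf values had been seen. The lowest Braf value, 0.615 from the brightest probe set, is close to the 1.5-fold line of 0.585. It fell under that line with the floor at the 25th percentile (0.571), without a floor (0.510) and without suffixed probe sets (0.576). With quantile normalization the brightest probe set had 0.709, which was also the median of the 5. Another of the 5 was then lowest at 0.577.

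Counting probe sets above and below the floor alike, 19 genes had 9 or more, and 3 of them (15.8%) had every probe set higher in the KO-titled pool. They were Braf, Meg3, an imprinted noncoding RNA of the nucleus, and Kdm5c, an X-linked histone demethylase gene. Malat1, another nuclear noncoding RNA, had all 7 probe sets higher, with a median log2 ratio of 3.54 over the 4 that were measured. Braf spans 122.4 kb. The longest 25% of measured genes, from 62.2 kb upwards, had a median ratio of 0.03, and the shortest 25%, up to 10.3 kb, had -0.15. The 25% groups between these had -0.02 and -0.08, in order of falling length. Map2k1, at 67.8 kb, was also in the longest group, with a ratio of -0.37, or 0.64 SD of the probe set error. What gene length or nuclear RNA contributes to the Braf values was not tested.

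**Figure D3:**
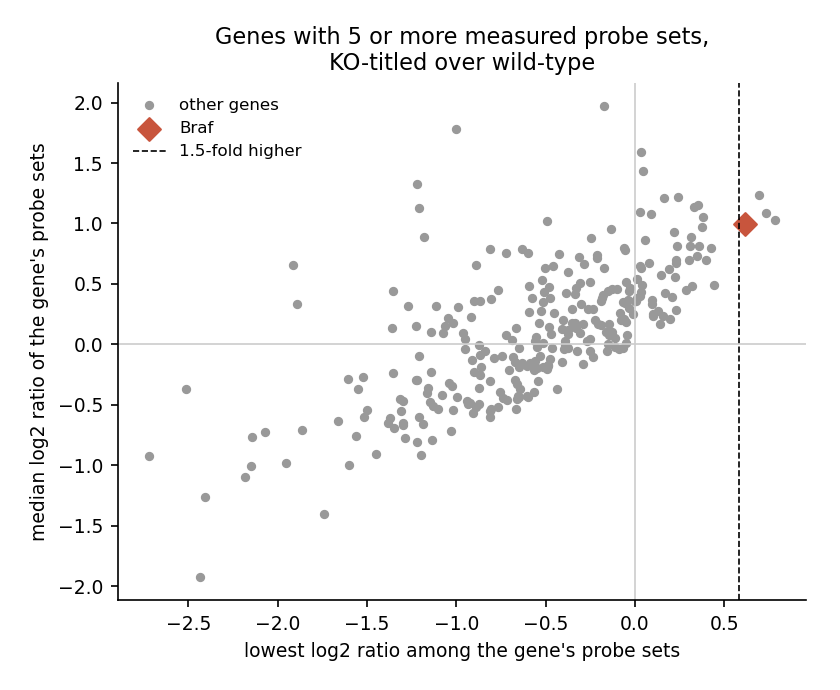
Each point is 1 of the 285 genes with 5 or more measured probe sets, placed by the lowest (horizontal) and the median (vertical) log2 ratio of its probe sets, KO-titled over wild-type; the dashed line marks 1.5-fold higher. Braf (diamond), at 0.62 and 0.99, is 1 of 4 genes to the right of the line.

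The MEK genes pointed the other way from Braf, by small amounts. Map2k1, which encodes MEK1, had 6498.2 units in the wild-type and 5065.8 units in the KO-titled pool, 1.29-fold lower in the latter, with a log2 ratio of -0.37. This was 0.64 SD of the probe set error. Map2k2, which encodes MEK2, had 1068 and 695.7 units by its brighter probe set 1415974_at, a log2 ratio of -0.63 or 1.55-fold lower. Its other probe set, 1460636_at, had 546.6 and 537.7 units and a ratio of -0.04. The share of measured probe sets at least 1.5-fold lower was 18.1%. The 2 Map2k2 probe sets thus differed from each other by 0.59, about as much as the brighter one differed from 0, and 1.5-fold was passed by 1 of them. Map2k2 was no longer 1.5-fold lower with loess scaling (-0.57), with the floor at the 60th percentile (-0.57) or by the median of both probe sets (-0.33).

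Of the phosphatases, Dusp4 was higher in the KO-titled pool and Dusp6 was level. Dusp4, encoding a nuclear phosphatase of ERK and other MAP kinases, had 207.2 units in the wild-type and 360.3 units in the KO-titled pool, 1.72-fold higher with a log2 ratio of 0.79. Dusp6, encoding the cytoplasmic phosphatase specific to ERK, had 1274.1 and 1297.5 units, a log2 ratio of 0.01. Each has a single probe set. The Dusp4 ratio was 1.36 SD of the probe set error and at the 93.1 percentile of measured genes. It kept its place above 1.5-fold in each of the scaling, floor and probe set alternatives that gave it a value, which ran from 0.60 to 0.84. The Dusp6 ratio ran from -0.09 to 0.08 in the same alternatives and changed sign among them.

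Most other genes of the cascade and its surroundings lay within 1.5-fold. Of 108 listed genes, 92 were measured. Of these, 15 (16.3%) were at least 1.5-fold higher and 8 (8.70%) at least 1.5-fold lower, to be read against 12.5% and 18.2% of all genes. The count of each list below is to be read against the same shares. The count of 8 became 4 with the floor at the 60th percentile. The median of the 92 was 0.12. The lists were chosen with earlier results of these data known, so these counts describe the genes and are no independent evidence.

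At the level of RAS the genes were divided. Among 6 other RAS and RAP GTPases, Rap1a (-0.83) and Mras (-0.64) were at least 1.5-fold lower and none was higher; the highest was Nras at 0.48, with 1 of its probe sets at -1.35. The second Rap1a probe set had 0.20. Among 7 exchange factors, which load RAS with GTP, Sos1 was 1.57-fold higher, from 971.4 to 1541 units, with its other measured probe set at -0.08. Its paralog Sos2 was 1.57-fold lower, from 1392.1 to 895.4 units, by its single probe set. Rasgrp3 was lowest at -1.08. Among 7 measured GTPase-activating proteins, which switch RAS off, only Nf1 passed 1.5-fold, at 0.65, and the lowest was Rasa1 at -0.41 with another probe set at 1.99.

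Besides the members, Araf, a paralog of Braf, was measured, with 1194.3 and 1612.1 units and a ratio of 0.42. Its 4 measured probe sets ran from -0.23 to 0.63. Among 8 scaffolds and modulators, Ksr1, a scaffold for RAF and MEK, was 2.13-fold higher, but its other measured probe set had -0.71. Shoc2, which helps to activate RAF, was 2.14-fold lower, from 1327.6 to 626.4 units. Pea15a, which holds ERK in the cytoplasm, was 1.96-fold lower. Both measured probe sets of Shoc2 and of Pea15a had ratios below 0.

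The other MAP kinase phosphatases were mixed, as Dusp4 and Dusp6 were. Of 7 measured, Dusp1, an early-response phosphatase of JNK, p38 and ERK, was 2.37-fold higher, from 1753.7 to 4194.6 units. Dusp2 was 1.64-fold higher, from 74 to 122 units, and Dusp5 was 1.61-fold lower, from 131.9 to 82.8 units. Dusp7, which like Dusp6 acts on ERK in the cytoplasm, had 3 probe sets between 0.33 and 0.39. The Sprouty and Spred genes, whose proteins restrain the path from receptor to RAF, lay within 1.5-fold for 6 of 7 by brightest probe set, with Spry4 highest at 0.56. Spred2 had 0.20 by that measure but a median of 1.42 over its 3 measured probe sets. Spred1 was lowest at -0.61, with its 7 measured probe sets between -1.37 and 0.40.

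Downstream of ERK, Fos and 4 other early-response genes were higher in the KO-titled pool. Of 12 measured transcripts that ERK activity is known to raise, 5 were at least 1.5-fold higher and 0 at least 1.5-fold lower, beside 12.5% and 18.2% of all measured genes, with a median of 0.35. Fos, a transcription factor gene of the early response, was 2.41-fold higher, from 1816.1 to 4420.1 units. Fosb was 2.03-fold higher, from 115.9 to 237.3 units, and Egr2 1.83-fold higher, with its second probe set at 0.63. Ier2 and Ier3 were 1.66-fold and 1.51-fold higher. Egr1 and Arc had ratios of 0.33 and 0.36, and Myc was lowest at -0.42. The count of 5 became 3 with quantile normalization, under which 1 gene was at least 1.5-fold lower, and 3 of 9 with the floor at the 60th percentile. All but 1 of the 5 rest on a single probe set.

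Among 12 measured kinases and transcription factors that ERK phosphorylates or otherwise acts on, 3 were at least 1.5-fold higher and 0 were so lower. The shares of all measured genes were 12.5% and 18.2%. The counts of 3 and 0 are by brightest probe set, as is the list median of 0.40, beside -0.06 over all measured genes. Ets1 had a ratio of 1.22, with its lowest probe set at -0.49. Elk4, a partner of serum response factor, had 0.77 with its other measured probe set at 0.03, and Rps6ka3, which encodes the kinase RSK2, had 0.69 with another probe set at -0.28. The lowest was Elk3 at -0.29. By the median of each gene's measured probe sets, Ets1 (0.54), Elk4 (0.40) and Rps6ka3 (0.20) fell under the 1.5-fold line of 0.585. Elk3, at -0.59 by that median, was then at least 1.5-fold lower. Srf, Etv5 and Mknk2 had 0.49, 0.40 and 0.41 by brightest probe set and -0.01, -0.03 and -0.09 by that median.

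Of 16 measured receptors and adaptors upstream of RAS, 2 were at least 1.5-fold higher and 0 at least 1.5-fold lower. Among all measured genes 12.5% were so higher and 18.2% so lower. Igf1r, the receptor gene for insulin-like growth factor 1, was 2.69-fold higher, from 1057.7 to 2865.8 units, with its 3 measured probe sets between 1.38 and 1.53. Crkl, an adaptor gene, had 0.86 with another probe set at -0.17, and Egfr was lowest at -0.33. By brightest probe set, the parallel JNK and p38 kinases had 0 of 9 measured genes past 1.5-fold in either direction. Their ratios ran from -0.49 for Map2k6 to 0.53 for Mapk12. Other measured probe sets did pass 1.5-fold, with a highest value of 2.56 for Mapk8, 1.59 for Mapk14 and 0.61 for Map2k3. The lowest for Mapk9 was -0.65. No list was tested against another.

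**Figure D4:**
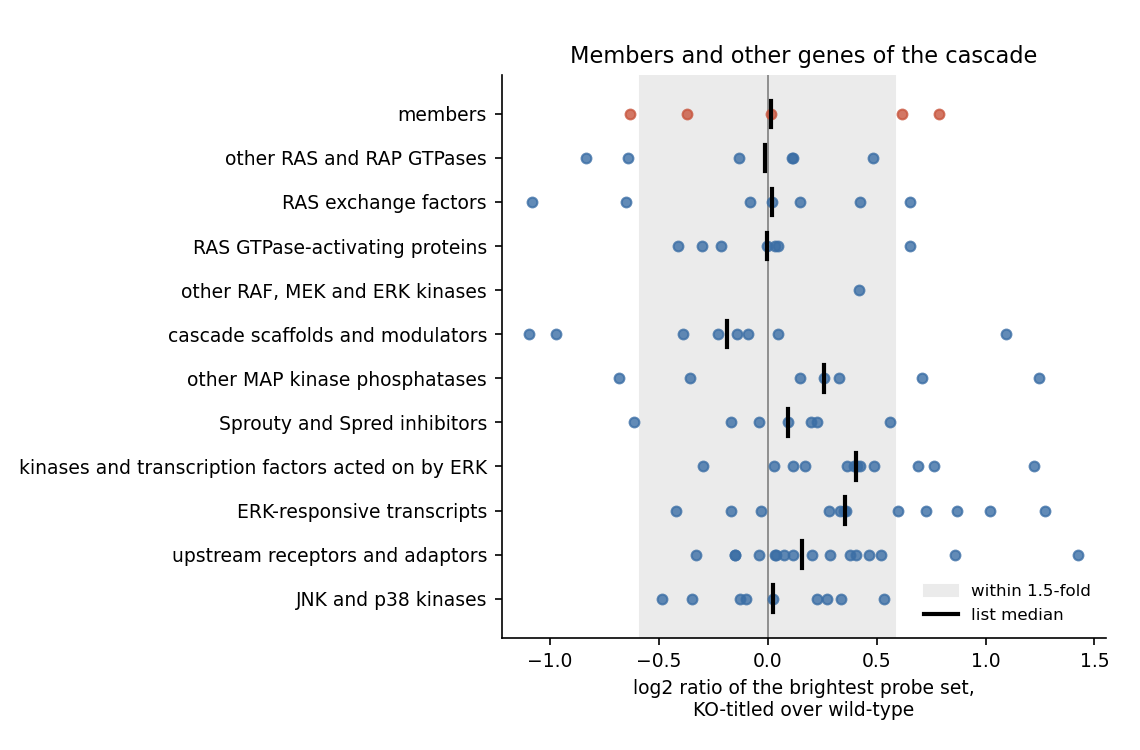
Log2 ratio of KO-titled over wild-type signal by brightest probe set for the 5 measured members (top row) and for the measured genes of 11 lists of the cascade and its surroundings; each point is 1 gene, the black bar is the list median and the grey band is 1.5-fold. The ERK-responsive transcripts have 5 points to the right of the band and 0 to its left, and the JNK and p38 kinases stay inside it.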

How the data were processed

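The deposited values are linear intensities, 1 per probe set and array; GCOS is named in the submitters' processing notes, with no version; the algorithm and detection calls are not stated in the sources used here. Both arrays had the same mean of 500.0 units after trimming 2% at either end. Their medians differed, with 92 units in the wild-type and 124.9 units in the KO-titled pool. Of non-control probe sets, 56.9% in the wild-type and 63.1% in the KO-titled pool reached the floor. The floor was the 40th percentile of non-control signals. Probe sets with 1 symbol took the current RefSeq symbol by gene identifier (34741 of 34945 matched; GRCm38.p6), and a gene was represented by its brightest probe set (mean log2 of both arrays). Probe set error is the SD of the difference between the 2 brightest probe sets of 5375 genes, over the square root of 2. Having 2 arrays limits all precision. Members and lists were chosen with earlier results of these data known. All member probe sets are named, and from each cascade list the highest, the lowest and each gene 1.5-fold apart, with cell type markers as counts; the additional list genes, Neurod6 and the genes beside Braf were chosen after their values were seen. A single ratio per gene allows no search for genes with a like pattern. Promoters are from RefSeq; 5 of the 7 members matched. The calculations were tested on simulated data. Python 3.11.15, numpy 2.4.6, pandas 2.3.3 and statsmodels 0.14.6 were used.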

Additional observations from a re-analysis of the deposited data

How the results depend on the processing

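Over 10 alternatives, 86 of 109 recomputed values stayed close to those reported: ratios within 1 SD of the probe set error, counts within 1.5 times. Among the members, no ratio past 1.5-fold changed sign. Single ratios of the other cascade genes were not compared in this way, and some, such as Ksr1 and Rap1a, had measured probe sets of both signs. Braf ran from 0.51 to 1.26 and Map2k2 from -0.74 to -0.036; the values of 1.26 and -0.036 are those of the second brightest probe set, under which the median of the members was 0.61 over the 2 with such a probe set. The count of higher members was 1 with the floor at the 25th percentile, without a floor, without suffixed probe sets and by second brightest probe set, and 0 at 2-fold. The count of lower members was 0 with the floor at the 60th percentile, with loess, by median or second brightest probe set and at 2-fold. Higher Braf probe sets numbered 8 of 9 with the floor at the 25th percentile, 2 of 2 at the 60th, and 2 of 5 at 2-fold. ERK-responsive transcripts were higher for 3 of 12 with quantile normalization, 3 of 9 with the floor at the 60th percentile, 2 of the 2 with a measured second brightest probe set and 2 of 12 at 2-fold. Other cascade genes numbered 6 higher and 2 lower at 2-fold, and 4 lower with the floor at the 60th percentile. The cause of these changes was not tested, beyond fewer or more probe sets being measured. No paired analysis was possible because each group is 1 array.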

Other observations

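The dimmer probe sets of Braf and of Map2k2 both gave higher KO-titled to wild-type ratios than the brightest probe set of the same gene, by 0.51 and 0.59 at the median on the log2 scale. Among probe sets at or above the floor in both pools, the arrays and the cascade as a whole did not show this. Of all 5375 genes with 2 or more measured probe sets, 51.5% had other probe sets above the brightest one, with a median difference of 0.02. Of 59 other cascade genes of this kind 26 did (44.1%), with a median difference of -0.12. Single probe sets stood far apart in other kinase genes: Mapk8, which encodes JNK1, had 4 measured probe sets between -0.52 and 2.56, and Mapk14, which encodes p38 alpha, had 4 between -0.25 and 1.59. The brightest and the highest probe set of Spred2 had 0.20 and 1.79.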
